A study of Mus musculus with 8 samples.

Results

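The genes followed here were 2 neurexins (Nrxn2 and Nrxn3), 3 neuroligins (Nlgn1, Nlgn2 and Nlgn3) and all 4 Lrrtm genes (Lrrtm1, Lrrtm2, Lrrtm3 and Lrrtm4), taken by symbol from the 32285 genes of every deposited matrix. All 9 were present. Their RNA was counted in single nuclei of 2 brain regions, the caudate putamen and the anterior part of the hippocampus. The mice were of the C57BL/6JN strain, aged 3 or 21 months, with no mutation or treatment named. Each of the 4 groups (hippocampus or caudate putamen, at either age) held 2 libraries, and a library pooled nuclei of 1 male and 1 female of the same age in equal numbers, so a library is a pair of animals and not 1 mouse. Nuclei came from punches of the left hemisphere, were released in EZ lysis buffer, sorted by DNA stain and made into 10x Genomics libraries (v3.1 chemistry). The labels do not tie hippocampal to caudate putamen libraries by animal. Nuclei were assigned to classes from marker genes without using the 9 genes, and a class is called X-like for that reason. Levels are given as CPM, the counts of unique molecular identifiers (UMIs) of a gene per 1000000 UMIs summed over the nuclei of a class in a library.

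Neurexins are presynaptic cell surface proteins that are made from alternative promoters and spliced into many forms. Across the synaptic cleft they bind neuroligins and LRRTM proteins, which sit on the postsynaptic side. Neuroligin 1 is found mainly at excitatory synapses, neuroligin 2 mainly at inhibitory ones and neuroligin 3 at both. LRRTM proteins carry leucine-rich repeats and act at excitatory synapses, and LRRTM4 is best known from the dentate gyrus, where it binds heparan sulphate on presynaptic partners. The genes differ greatly in size, which matters for nuclear RNA because long introns add unspliced transcript.

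In the GENCODE vM21 annotation of GRCm38, Nrxn3 covered 1612060 bases (chr12:88722876-90334935, plus strand), Nlgn1 906246 bases (chr3:25426215-26332460, minus strand) and Lrrtm4 791267 bases (chr6:80018877-80810143, plus strand). Lrrtm3 covered 161806 bases (chr10:63928472-64090277, minus strand) and Nrxn2 125439 bases (chr19:6418731-6544169, plus strand). Nlgn3 covered 26796 bases of the X chromosome (chrX:101299168-101325963, plus strand), Lrrtm1 15103 bases (chr6:77242689-77257791, plus strand), Nlgn2 14663 bases (chr11:69823122-69837784, minus strand) and Lrrtm2 6022 bases. Lrrtm1, Lrrtm2 and Lrrtm3 lie within the alpha-catenin genes Ctnna2, Ctnna1 and Ctnna3, in each case on the opposite strand. Whether the deposited counts were made by strand is not given in the sources used here, so reads of these 3 genes and of their hosts cannot be told apart with certainty. Annotated genes on the same strand overlap Lrrtm4 (8 of them), Nrxn3 (3), Nlgn1 (1) and Nlgn3 (1).

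RefSeq promoter sequences (GRCm38.p6) were matched for 6 of the 9 genes, with 10 transcription starts between them. Nrxn2 and Nlgn3 had no entry, and Lrrtm2 was left out of the matching. The 250 bases upstream of a start are shown for Nlgn2, which was called lower at 21 months in 2 striatal neuron classes, and for Lrrtm4 and Lrrtm3, which differed most between hippocampal neurons, read 5′ to 3′ on the gene's strand, with matches to the searched motifs in capitals on either strand.
Nlgn2, chr11:69837785-69838034, minus strand: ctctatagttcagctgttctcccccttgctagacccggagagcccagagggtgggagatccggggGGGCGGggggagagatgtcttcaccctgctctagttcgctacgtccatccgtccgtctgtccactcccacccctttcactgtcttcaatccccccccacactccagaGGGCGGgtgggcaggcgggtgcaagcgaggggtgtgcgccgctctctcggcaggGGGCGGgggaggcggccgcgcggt
Lrrtm4, chr6:80018627-80018876, plus strand: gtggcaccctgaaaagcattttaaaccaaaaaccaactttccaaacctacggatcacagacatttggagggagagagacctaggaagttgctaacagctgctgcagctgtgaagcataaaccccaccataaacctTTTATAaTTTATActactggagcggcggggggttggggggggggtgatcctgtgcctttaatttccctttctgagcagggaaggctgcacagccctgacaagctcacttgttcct
Lrrtm3, chr10:64090256-64090505, minus strand: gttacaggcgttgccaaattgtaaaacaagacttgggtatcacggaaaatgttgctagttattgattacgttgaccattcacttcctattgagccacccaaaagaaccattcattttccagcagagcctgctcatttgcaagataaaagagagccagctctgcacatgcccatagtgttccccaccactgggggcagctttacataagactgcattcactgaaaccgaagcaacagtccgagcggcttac
The searched motifs were TATAAA (the TATA box), GGGCGG (the GC box), CCAAT and TGACGTCA (the cAMP response element), each on both strands. The Nlgn2 window held 3 matches to GGGCGG, 18 CpG dinucleotides and 67.6% G or C, where the medians over 32841 promoters were 6 CpG dinucleotides and 52.4%. The Lrrtm4 window at its first start held 2 matches to TATAAA on the reverse strand (printed as TTTATA) and 3 CpG dinucleotides. The Lrrtm3 window held none of the 4 motifs. Of all promoters, 12.4% held TATAAA, 32.7% GGGCGG, 33.9% CCAAT and 1.55% TGACGTCA, and a match describes these letters only.

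The 8 libraries held 67205436 to 234811422 UMIs and gave 6387 to 17012 retained nuclei each (97740 in all), at a median of 6664 to 11275 UMIs per nucleus. Between 2.55% and 15.6% of barcodes were removed as doublets, between 6.09% and 16.8% of retained nuclei had no class name, and no pair of libraries shared over 0.774% of barcodes. In each region 9 classes had at least 20 nuclei in every library and were tested. The smallest were endothelial-like nuclei (31 to 143 per library) and, among neurons, CA3-like nuclei (84 to 280) and hippocampal interneuron-like nuclei (98 to 404). Depth differed by class, with a median of 10018 to 11523 UMIs in dentate granule-like, 22568.5 to 26214 in CA3-like and 2015 to 2875 in microglia-like nuclei. Over all nuclei the 9 genes gave from 11508 UMIs (Lrrtm2) to 5876304 UMIs (Nrxn3).

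Nrxn3 had its highest levels in neurons, with a wide range between neuron types. In the hippocampus it stood at 9741 ± 738 CPM (SD, n = 4 libraries) in interneuron-like, 9465 ± 783 CPM in CA3-like and 7730.4 ± 949 CPM in CA1-like nuclei, and at 2577 ± 1062 CPM in dentate granule-like nuclei, where the ages differed (given further on). In the caudate putamen it was highest in eccentric medium spiny-like nuclei, a minor striatal projection type apart from the D1 and D2 neurons of the direct and indirect pathways, at 13505 ± 361 CPM. D2-like nuclei followed at 9594 ± 956 CPM, interneuron-like nuclei at 9202 ± 329.9 CPM and D1-like nuclei at 8099 ± 698 CPM. No neighbouring pair of these 4 classes passed the edgeR quasi-likelihood test. Outside neurons, precursors of oligodendrocytes (OPC-like nuclei) held 3182 CPM in the hippocampus and 3155 CPM in the caudate putamen, a level whose difference from that of dentate granule-like nuclei did not pass the test (1.03-fold, adjusted p = 0.911).

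Nrxn2 had another order. OPC-like nuclei held the most in both regions, 663 ± 81.1 CPM in the hippocampus and 644 ± 92.1 CPM in the caudate putamen. Astrocyte-like nuclei came next at 297 ± 18.4 CPM and 208 ± 22.1 CPM. Among neurons the interneuron-like classes held 126 CPM (hippocampus) and 160.5 CPM (caudate putamen), above the projection neurons, which ranged from 49.8 CPM in D1-like to 86.4 CPM in eccentric medium spiny-like nuclei. Hippocampal interneuron-like nuclei exceeded CA1-like nuclei 1.72-fold, adjusted p = 1.13e-06, and D2-like exceeded D1-like nuclei 1.38-fold, adjusted p = 3.53e-07. Microglia-like nuclei held only 22.5 and 25.8 CPM in the hippocampus and caudate putamen.

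Among the neuroligins, Nlgn1 divided the striatal neurons. D1-like nuclei held 6373 and 5905 CPM at 3 months and 5798 and 5394 CPM at 21 months, and D2-like nuclei 5788 and 5473 CPM at 3 months and 5604 and 5557 CPM at 21 months. Eccentric medium spiny-like nuclei held only 1404 and 1202 CPM at 3 months and 1297 and 1206 CPM at 21 months, and striatal interneuron-like nuclei 811 and 931 CPM at 3 months and 659 and 818 CPM at 21 months. The ranges of the first pair and the second pair of classes lay far apart, and D1-like nuclei exceeded eccentric medium spiny-like nuclei 5.10-fold, adjusted p = 5.35e-17. In the hippocampus the order was CA3-like (5713 ± 205 CPM), CA1-like (4211 ± 90.4 CPM), dentate granule-like (2966 ± 229 CPM) and interneuron-like (2752 ± 271 CPM). OPC-like nuclei held 5984 ± 237 CPM and 5836 ± 412 CPM in the 2 regions, and astrocyte-like nuclei 2926 ± 128 CPM and 2216 ± 133 CPM. The hippocampal astrocyte-like and interneuron-like levels were not separated by the test (adjusted p = 0.875).

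Nlgn2 and Nlgn3 were short genes with few UMIs, and both were highest in OPC-like nuclei. Nlgn2 stood there at 68.9 ± 10.0 CPM in the hippocampus and 75.8 ± 9.51 CPM in the caudate putamen, and in neurons between 20.7 CPM (CA3-like) and 34.7 CPM (striatal interneuron-like). OPC-like nuclei exceeded the class next in order, hippocampal interneuron-like nuclei, 1.93-fold, adjusted p = 7.42e-09. The ratio of Nlgn2, the neuroligin of inhibitory synapses, in interneuron-like over CA1-like nuclei of the hippocampus did not pass the test (1.00-fold, adjusted p = 0.979), nor did that in interneuron-like over D1-like nuclei of the caudate putamen (0.909-fold, adjusted p = 0.274). Nlgn3 stood at 104 ± 13.6 CPM and 94.5 ± 7.09 CPM in OPC-like nuclei and at 45.7 ± 5.02 CPM and 50.4 ± 6.15 CPM in astrocyte-like nuclei. Its highest neuronal level was in dentate granule-like nuclei, 41.3 ± 2.01 CPM, above CA1-like nuclei 1.32-fold, adjusted p = 0.00199, a call lost without young replicate 1 (adjusted p = 0.118), with doublets kept (adjusted p = 0.0608) and by DESeq2 (adjusted p = 0.0625).

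Lrrtm4 and Lrrtm3 differed widely between hippocampal neurons. Lrrtm4 stood in dentate granule-like nuclei at 9186 and 8305 CPM at 3 months and 8981 and 9211 CPM at 21 months, and in interneuron-like nuclei at 6193 and 6348 CPM at 3 months and 7631 and 5295 CPM at 21 months. CA3-like nuclei held 1362 and 1069.8 CPM at 3 months and 1102 and 1312 CPM at 21 months, and CA1-like nuclei 309 and 361 CPM at 3 months and 275 and 419.8 CPM at 21 months. Every dentate library lay above every library of the pyramidal classes, and the dentate level exceeded that of CA1-like nuclei 25.3-fold, adjusted p = 1.35e-11. On the log2 scale this difference was 4.66, and 3.54 with doublets kept. Dentate and interneuron-like nuclei were not separated (adjusted p = 0.103). The 4 striatal neuron classes were close together, from 2034 CPM in D1-like to 3135 CPM in interneuron-like nuclei, and no neighbouring pair of them passed the test.

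Lrrtm3 was low in the named classes of hippocampal pyramidal neurons. Unnamed nuclei, which were not ranked, held 20.7% to 32.9% of the Lrrtm3 UMIs of a hippocampal library. CA1-like nuclei held 16.6 and 16.4 CPM at 3 months and 15.4 and 20.04 CPM at 21 months, and CA3-like nuclei 10.3 and 14.6 CPM at 3 months and 10.4 and 11.5 CPM at 21 months. Dentate granule-like nuclei held 239.8 ± 29.8 CPM, hippocampal interneuron-like nuclei 458 ± 35.4 CPM and D1-like nuclei of the caudate putamen 995 ± 59.1 CPM, the highest of the 18 class means. Hippocampal microglia-like nuclei, used below as a non-neuronal reference, held 22.0 ± 9.57 CPM, and the CA1-like level was not separated from theirs (adjusted p = 0.104). The dentate level exceeded the CA1-like level 13.5-fold, adjusted p = 3.07e-24. On the log2 scale this difference was 3.76, against 2.78 with doublets kept and 2.51 at Leiden resolution 2.0. Oligodendrocyte-like nuclei also held Lrrtm3, at 388 ± 32.8 CPM in the hippocampus and 359 ± 43.4 CPM in the caudate putamen, and OPC-like nuclei at 792 ± 41.6 CPM and 764 ± 21.7 CPM. The CA1-like and CA3-like classes thus held the lowest Lrrtm3 and Lrrtm4 means of the 4 hippocampal neuron types and the highest Nlgn1 means.

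Lrrtm1 varied little among neurons, from 26.1 CPM in eccentric medium spiny-like to 39.7 CPM in hippocampal interneuron-like nuclei. Lrrtm2, the shortest of the genes and the one with the fewest UMIs, was highest in eccentric medium spiny-like nuclei at 22.0 and 25.1 CPM at 3 months and 20.7 and 23.2 CPM at 21 months and had its lowest CPM in CA3-like nuclei at 3.21 and 6.36 CPM at 3 months and 4.34 and 5.83 CPM at 21 months. In CA3-like nuclei these values rested on 10 to 44 UMIs per library. In the hippocampus 7 of 8 neighbouring pairs in its order did not pass the test, and the fit put CA3-like above microglia-like nuclei (log2 difference 0.36, adjusted p = 0.400), against the order of the CPM.

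**Figure D1:**
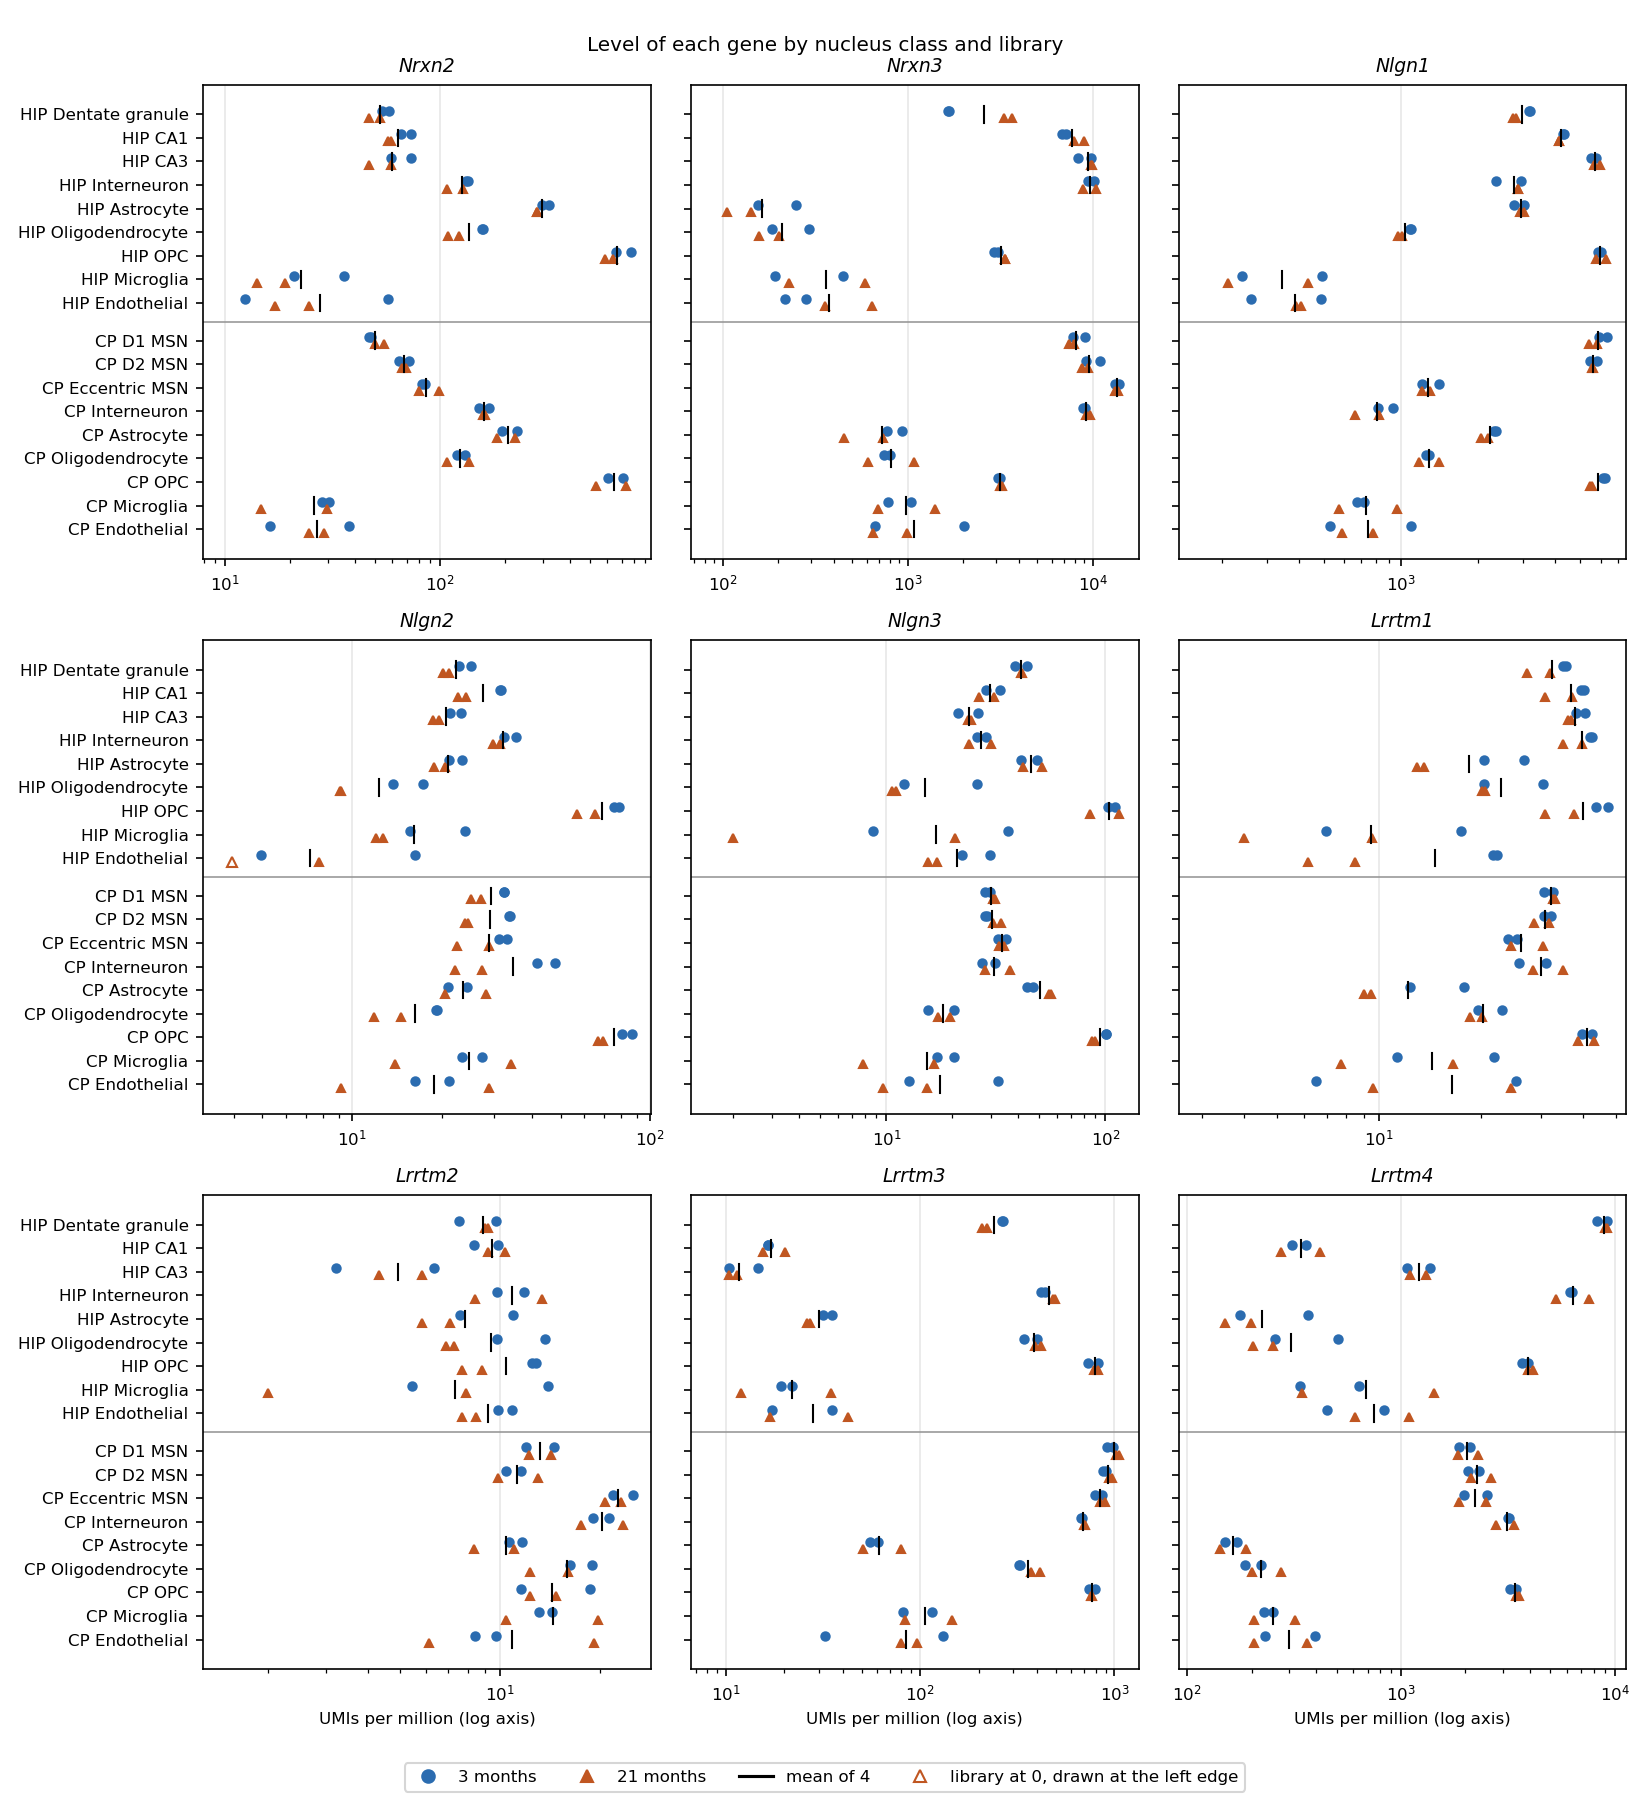
Level of each of the 9 genes (CPM, log axes) in 9 classes of the hippocampus (HIP) and 9 of the caudate putamen (CP), with circles for the 2 libraries at 3 months, triangles for the 2 at 21 months and a bar at the mean of the 4; an open symbol at the left edge marks a library at 0. Lrrtm3 and Lrrtm4 fall from dentate granule-like to CA1-like and CA3-like nuclei, Nlgn1 from D1-like and D2-like to the other striatal neurons, and Nrxn2, Nlgn2 and Nlgn3 are highest in OPC-like nuclei.

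Over all 36 pairs of classes, 250 of 324 tests of these genes passed an adjusted p of 0.05 in the hippocampus and 257 of 324 in the caudate putamen, in edgeR fits of all genes with the library as a block. Over all genes 55.3% and 55.7% of such tests passed. A small fold between classes depends on the scaling. The trimmed-mean (TMM) factors of a class ran from 0.775 (CA3-like) to 1.43 (endothelial-like) in the hippocampus and from 0.748 (D2-like) to 1.43 (endothelial-like) in the caudate putamen, so fitted folds of CA3-like or D2-like over endothelial-like nuclei exceed ratios of CPM. In 3 neighbour pairs that passed the test the fit went against the order of the CPM: for Nlgn2 in astrocyte-like over CA3-like nuclei of the hippocampus (fitted fold 0.796), for Nlgn1 in OPC-like over D2-like nuclei (0.75) and for Nlgn3 in striatal interneuron-like over D2-like nuclei (0.784). For these 3 pairs no direction was read, and in 32 neighbour pairs that did not pass the fit also went against the CPM.

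To order levels of different genes, CPM was divided by the length of the gene in kilobases, introns included. On that scale Lrrtm4 in dentate granule-like nuclei was the highest of all 162 combinations of gene, class and region, at 11.3 CPM per kilobase, against 3.27 for Nlgn1 and 1.60 for Nrxn3 in the same nuclei. In CA1-like nuclei Nrxn3 (4.80 CPM per kilobase) and Nlgn1 (4.65) stood above Lrrtm4 (0.431) and Lrrtm3 (0.106). In D1-like nuclei Nlgn1 (6.47), Lrrtm3 (6.15) and Nrxn3 (5.02) were close. In OPC-like nuclei of the hippocampus 6 genes lay between 3.86 and 6.60 CPM per kilobase (Nlgn3, Nlgn2, Lrrtm3, Lrrtm4, Nrxn2 and Nlgn1). A spliced transcript and its introns scale differently with length, so this scale orders the genes only roughly.

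Free RNA in droplets adds transcripts of abundant cells to every nucleus. To gauge it, the level of each gene in a non-neuronal class was expressed as a percentage of its level in the summed neuron-like nuclei of the same library, beside the same percentage for 16 neuronal genes (Snap25, Syt1, Rbfox3 and others). In microglia-like nuclei the list median ranged from 8.71% to 31.5% over hippocampal libraries and from 17.8% to 26.3% over caudate putamen libraries. The list itself was uneven there, with Rbfox3 at 2.29% to 14.0% and Nefl at 58.3% to 249%, so no single percentage marks free RNA.

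Nrxn3, Nlgn1, Lrrtm3 and Lrrtm4 in microglia-like nuclei lay below the list median in every library of both regions. They stood at 9.05%, 10.4%, 10.9% and 9.66% of the neuron level in the hippocampus, and at 11.04%, 13.6%, 11.3% and 11.9% in the caudate putamen. These 4 genes thus had close percentages of the neuron level in each region. Nrxn2 stood at 37.8% and 41.3% and lay above the list median in every library, on 7 to 33 UMIs per hippocampal and 17 to 55 UMIs per caudate putamen library. With doublets kept, Nlgn1 lay below the list median in every library in only 1 combination of class and region. It thus did not do so in the microglia-like nuclei of both regions. How much of any of these levels is free RNA was not tested. Astrocyte-like nuclei held still less of Nrxn3 (4.29% in the hippocampus, 8.10% in the caudate putamen) and Lrrtm4 (3.23% and 7.69%), and oligodendrocyte-like nuclei likewise (5.40% and 9.17% for Nrxn3, 4.41% and 10.4% for Lrrtm4).

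The following glial levels lay above the median of the list in every library. Nrxn2 in OPC-like nuclei was 1018% to 1264% of the neuron level over hippocampal libraries and 868% to 1133% over caudate putamen libraries, and in astrocyte-like nuclei 463% to 536% and 301% to 366%. Nlgn1 in astrocyte-like nuclei was 79.8% to 99.3% and 39.6% to 43.2%. Lrrtm3 in oligodendrocyte-like nuclei was 154% to 217% in the hippocampus and 35.1% to 41.3% in the caudate putamen, where neurons hold more of it. OPC-like nuclei held all 9 genes at over 30% of the neuron level in both regions, the lowest being Nrxn3 in the caudate putamen (31.6% to 39.1%). Of the 90 combinations of gene, class and region, 62 lay above the list median in every library, 22 below it in every library and 6 on both sides. Nrxn3 lay below in 8 of 10 combinations and Lrrtm4 in 7 of 10, in each case with the OPC-like classes above. With doublets kept the totals of the 90 combinations were 62 above, 18 below and 10 on both sides. With only nuclei of at least 2000 UMIs they were 57, 22 and 11.

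Nlgn2, Lrrtm1 and Lrrtm2 gave high percentages even in microglia-like nuclei (86.0%, 44.3% and 110.0% in the caudate putamen). Their levels there rested on few UMIs, with 7 to 53 per library for these 3 genes in the caudate putamen and 1 to 22 in the hippocampus. Short neuronal list genes such as Nefl reached like percentages in the same nuclei. In the endothelial-like nuclei of 1 hippocampal library at 21 months Nlgn2 had no UMI, and the class mean of 7.23 CPM rested on 0 to 6 UMIs per library.

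**Figure D2:**
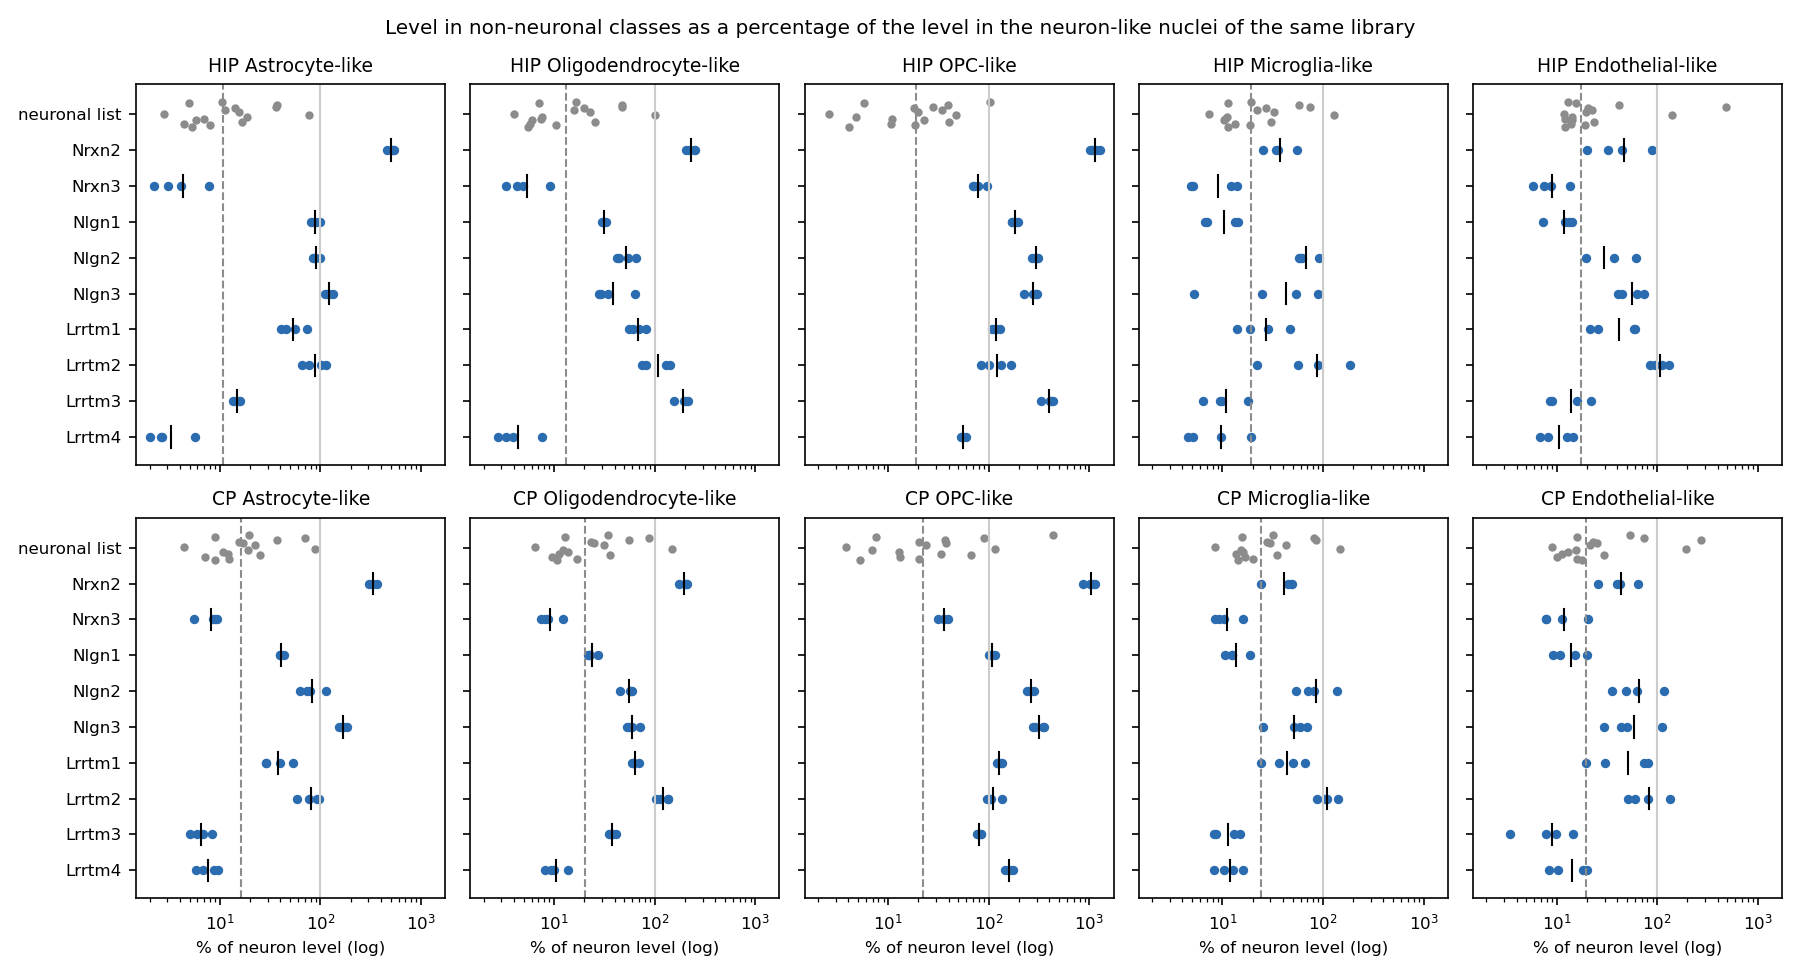
Level of each gene in 5 non-neuronal classes as a percentage of its level in the neuron-like nuclei of the same library (log axis), in the hippocampus (upper row) and the caudate putamen (lower row); blue points are the 4 libraries, bars their means, grey points the 16 neuronal list genes (means over libraries), the dashed line their median and the solid grey line 100%. Nrxn3 and Lrrtm4 lie under or around the list median in all classes but OPC-like, whereas Nrxn2 in OPC-like, astrocyte-like and oligodendrocyte-like nuclei lies above 100%.

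Shares of nuclei with a UMI moved with depth and were compared after thinning each nucleus to 3000 UMIs, which left out shallower nuclei (558 of the microglia-like nuclei of the hippocampus and 1143 of those of the caudate putamen). Over 50% of nuclei in every library held a UMI in 59 of 162 combinations before thinning and in 51 after it. Nrxn3 was found in 81.8% to 100% of thinned microglia-like nuclei of the caudate putamen and in 32.5% to 73.9% of those of the hippocampus, against 79.2% to 91.4% and 34.6% to 66.1% before thinning. Thinning to 1500 UMIs left out 150 and 64 of these nuclei and gave 64.9% to 86.6% in the caudate putamen and 19.5% to 45.9% in the hippocampus. At 3000 UMIs Nlgn1 was found in 75.7% to 88.9% and 39.1% to 68.8% of the thinned nuclei. A UMI of these abundant genes was thus common in a class that served as the non-neuronal reference, and the part of free RNA in it was not tested. Nrxn2 was found in 78.9% to 86.2% of thinned OPC-like nuclei of the hippocampus, in 11.98% to 15.95% of dentate granule-like nuclei and in 1.43% to 11.6% of microglia-like nuclei. Lrrtm3 was found in 90.5% to 93.0% of thinned D1-like nuclei, 40.7% to 48.5% of dentate granule-like nuclei and 2.60% to 7.25% of hippocampal microglia-like nuclei.

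With age, 2 of 77 tests of these genes passed an adjusted p of 0.05 in the hippocampus and 2 of 77 in the caudate putamen. Over all genes and classes 1.17% and 1.28% of tests passed. The largest change was a rise of Nrxn3 in dentate granule-like nuclei, from 1676 and 1655 CPM at 3 months to 3668 and 3308 CPM at 21 months (log2 fold change 1.11, SE 0.0625, adjusted p = 7.95e-07, edgeR, n = 2 libraries per age). Both old libraries lay above both young ones with a wide gap. In this class 4.45% of all genes passed. The other hippocampal neurons differed less between ages: CA1-like nuclei held 7162 and 6856 CPM at 3 months and 8987 and 7916 CPM at 21 months (log2 fold change 0.35, SE 0.103, adjusted p = 0.164, or 0.0391 without the filter on low counts), CA3-like nuclei 9839 and 8297 CPM at 3 months and 9772 and 9954 CPM at 21 months, and interneuron-like nuclei 10193 and 9481 CPM at 3 months and 8825 and 10464 CPM at 21 months. The age groups overlapped in the last 2 classes.

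The difference of the age effects was tested between neuron classes, an added test chosen after the data were seen. The fit had no library term, so it took the sums of classes from the same library as independent. The change of Nrxn3 in dentate granule-like nuclei exceeded that in CA3-like nuclei by 0.96 on the log2 scale (SE 0.172, adjusted p = 0.0157) and that in interneuron-like nuclei by 1.08 (SE 0.173, adjusted p = 0.00317), and its excess over CA1-like nuclei of 0.77 missed the threshold (adjusted p = 0.0605). These were 2 of 54 tests of the 9 genes, against 0.171% of tests over all genes. DESeq2 called 4 of the 54. In the caudate putamen 0 of 54 passed in edgeR and 0 in DESeq2 (3 at an unadjusted p under 0.05 in edgeR, against 3.88% of tests over all genes), against 0.00983% over all genes.

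Young and old dentate granule-like nuclei were spread unevenly over 5 clusters. Cluster 6 took 33.5% and 34.1% of nuclei in young libraries against 4.49% and 4.44% in old libraries. Cluster 7 took 24.7% and 30.0% (young) against 10.9% and 11.2% (old). Cluster 8 took 32.0% and 27.4% (young) against 66.7% and 65.5% (old). The clusters come from the same libraries, and how many of all genes were higher at 21 months in all of them was not counted. Nrxn3 was at a higher CPM in both old libraries than in both young ones in each of the 5 clusters. In cluster 6 it stood at 946 and 1076 CPM at 3 months and 2443 and 2447 CPM at 21 months (log2 fold change 1.31, adjusted p = 8.82e-08), in cluster 7 at 567 and 558 CPM at 3 months and 1399 and 1362 CPM at 21 months (1.35, 7.61e-10) and in cluster 8 at 3236 and 3373 CPM at 3 months and 4511 and 4126 CPM at 21 months (0.44, 0.000338). Cluster 9 gave 0.36 (adjusted p = 0.00105) and cluster 12 0.40, which did not pass (0.0963). Clusters 8, 9 and 12, with changes of 0.36 to 0.44, moved less than the class value of 1.11, and clusters 6 and 7 moved more. Cluster 8, which held most old nuclei, also had a higher Nrxn3 level than clusters 6 and 7 at 3 months. In the glia of the same libraries no Nrxn3 change passed: astrocyte-like nuclei held 156 and 251 CPM at 3 months and 143 and 105 CPM at 21 months, oligodendrocyte-like nuclei 184 and 294 CPM at 3 months and 201 and 158 CPM at 21 months, and OPC-like nuclei 2938 and 3065 CPM at 3 months and 3367 and 3359 CPM at 21 months (log2 fold change 0.24, SE 0.0812, adjusted p = 0.18).

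**Figure D3:**
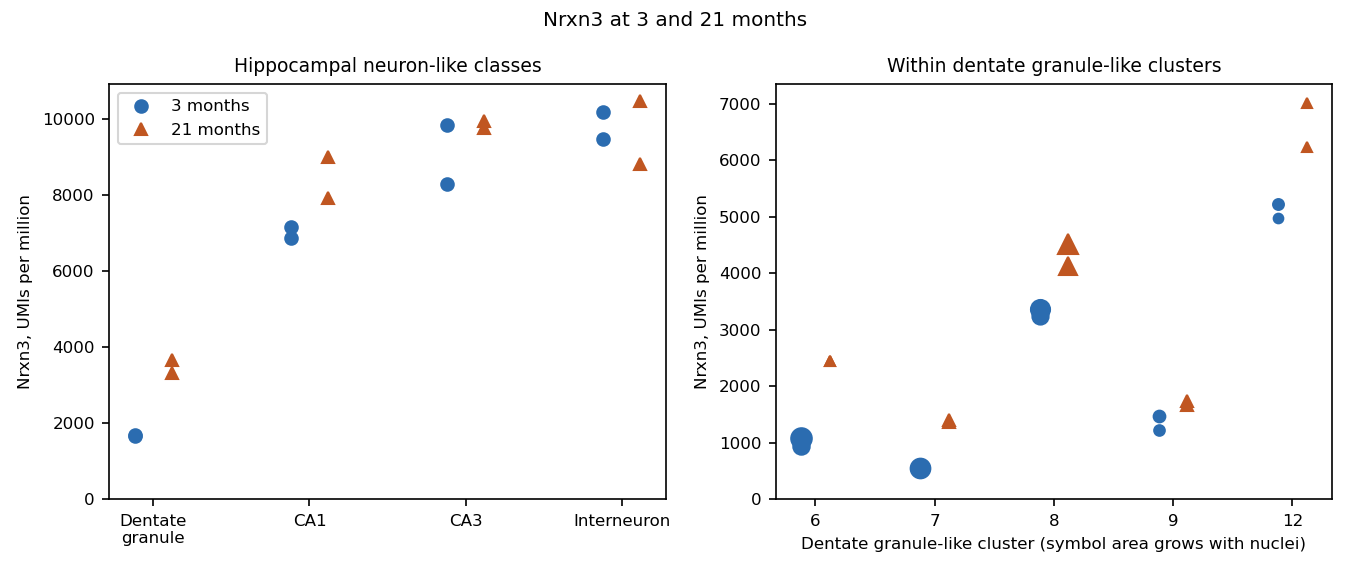
Nrxn3 (CPM, linear axes from 0) in 4 hippocampal neuron-like classes (left) and in the 5 clusters of dentate granule-like nuclei (right), with circles for libraries at 3 months and triangles for libraries at 21 months; at right the symbol area grows with the number of nuclei. The old dentate granule-like libraries (3668 and 3308 CPM) lie above the young (1676 and 1655 CPM), and the old libraries lie above the young in every cluster. The clusters come from the same 4 libraries.

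Lrrtm3 fell slightly in dentate granule-like nuclei, from 267 and 263 CPM at 3 months to 209 and 219.9 CPM at 21 months (log2 fold change -0.26, SE 0.0578, adjusted p = 0.0256). The age groups did not overlap. Within clusters 8 and 9 the change was -0.41 (adjusted p = 0.00198) and -0.62 (adjusted p = 1.96e-06) on the log2 scale, and within clusters 6, 7 and 12 it did not pass. Without old replicate 1 or old replicate 2 the class call was lost (adjusted p = 0.276 and 0.0739). The log2 change was then -0.22 and -0.30. A fit without 1 library leaves a single one in its group, which is assumed to vary like the other group, and in neuron classes that is the other age. The host gene of Lrrtm3, Ctnna3, on the opposite strand, stood in the same nuclei at 414 and 381 CPM at 3 months and 243 and 308 CPM at 21 months, also without overlap. Its part in the Lrrtm3 counts was not tested. Over 9 hippocampal classes the Lrrtm3 log2 change ran from -0.26 to 0.29 and was negative in 4. In the caudate putamen 0 of 9 were negative (0.026 to 0.33) and 0 passed in edgeR (smallest adjusted p = 0.176). Of 6 edgeR tests of the difference of its age effects between hippocampal neuron classes 0 passed (smallest adjusted p = 0.121), against 0.171% of tests over all genes.

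Nlgn2 was lower at 21 months in both old libraries than in both young libraries in all 8 neuron-like classes. It was the only one of the 9 genes to be so. In the 4 hippocampal classes alone Nrxn2 and Lrrtm1 were also lower in both old libraries, and the share of all genes doing so was not counted. Of 10740 genes with at least 40 UMIs in each of the 8 classes, 65 (0.605%) showed the full pattern of Nlgn2. Striatal D2-like nuclei held 33.5 and 33.8 CPM at 3 months and 24.6 and 23.9 CPM at 21 months (log2 fold change -0.50, SE 0.0691, adjusted p = 0.0189, against 4.54% of genes passing in that class). Striatal interneuron-like nuclei held 47.8 and 41.6 CPM at 3 months and 27.2 and 22.2 CPM at 21 months (log2 fold change -0.84, SE 0.158, adjusted p = 0.0378, against 0.209% of genes). No other class passed in this fit. Outside neurons, of 8 glial and endothelial classes with at least 40 UMIs of Nlgn2, both old libraries lay below both young in 6, against 24.5% of such combinations of gene and class over all genes. The other members of the 9 genes did so in 1 of 10 (Lrrtm4) to 4 of 7 (Lrrtm2) such classes. These nuclei come from the same libraries as the neurons, and the part of free RNA in their Nlgn2 levels was not tested. D1-like nuclei held 32.2 and 32.4 CPM at 3 months and 26.9 and 25.0 CPM at 21 months (log2 fold change -0.34, SE 0.078, adjusted p = 0.081, or 0.0346 without the filter on low counts), and CA1-like nuclei 31.5 and 31.4 CPM at 3 months and 22.6 and 24.0 CPM at 21 months (log2 fold change -0.35, SE 0.124, adjusted p = 0.267). The remaining 4 classes had log2 changes from -0.33 (eccentric medium spiny-like) to -0.08 (hippocampal interneuron-like). The differences of the Nlgn2 age effects between neuron classes did not pass, the smallest unadjusted p in the caudate putamen being 0.00481 for D1-like against interneuron-like nuclei (adjusted p = 0.896).

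Both Nlgn2 calls were lost under some alternatives while the log2 change kept its sign. The D2-like call was lost without old replicate 1, old replicate 2 or young replicate 2 (adjusted p = 0.0672, 0.108 and 0.0647), with the log2 change staying between -0.53 and -0.47. The interneuron-like call was lost without old replicate 2, young replicate 1 or young replicate 2 (adjusted p = 0.0512, 0.351 and 0.0995) and also by DESeq2 (adjusted p = 0.573), in a clustering that allowed the 9 genes as candidates for variable genes, of which none was chosen in the caudate putamen (0.135), and with doublets kept (0.0574). Over its 12 alternatives the log2 change ran from -0.995 to -0.685. Young caudate putamen replicate 2 is the library whose file header names another Cell Ranger version, so its part in the result was not tested beyond leaving it out. The change was -0.52 (adjusted p = 0.0136) in the larger D2-like cluster and -0.41 (adjusted p = 0.0895) in the smaller.

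**Figure D4:**
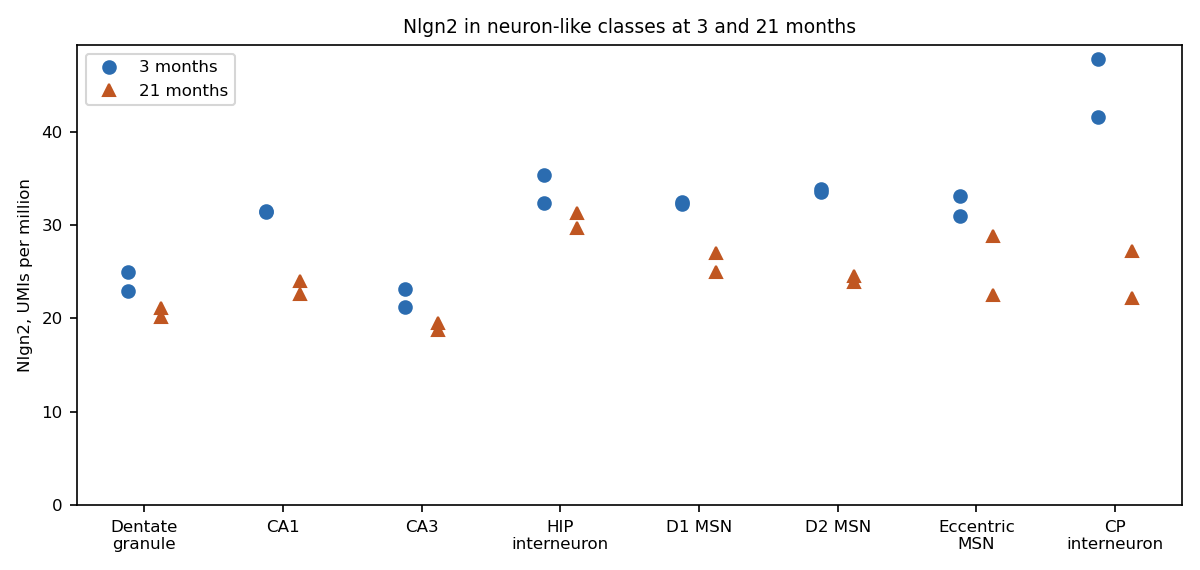
Nlgn2 (CPM, linear axis from 0) in the 4 neuron-like classes of the hippocampus and the 4 of the caudate putamen, with circles for the 2 libraries at 3 months and triangles for the 2 at 21 months. Both triangles lie below both circles in each of the 8 classes, and the edgeR test described in the text called the gap in D2-like and striatal interneuron-like nuclei.

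Nrxn2, Nlgn1, Nlgn3, Lrrtm1, Lrrtm2 and Lrrtm4 had no called age change in any class, and Nrxn3 had none in the caudate putamen, where D1-like nuclei held 7855 and 9107 CPM at 3 months and 7502 and 7931 CPM at 21 months. Nlgn1 changed by at most -0.23 on the log2 scale among neurons (striatal interneuron-like, adjusted p = 0.490, or 0.0471 without old replicate 2), Nlgn3 by at most 0.15 (striatal interneuron-like, adjusted p = 0.796) and Nrxn2 by at most -0.24 (CA3-like, adjusted p = 0.906). Lrrtm4 changed by 0.10 in dentate granule-like nuclei (SE 0.0676, adjusted p = 0.456), and by 0.21 without young replicate 1, where the young group is a single library assumed to vary like the 2 old ones (adjusted p = 5.65e-07). Among glia the largest log2 change with an SE under 0.25 was that of Lrrtm1 in astrocyte-like nuclei. It was -0.78 in the hippocampus (adjusted p = 0.110, or 0.00658 without the filter) and -0.70 in the caudate putamen (adjusted p = 0.203). Both old libraries lay below both young in each region. Over all genes, 24.5% of combinations of a gene with a glial or endothelial class showed that order. Of 41 tests of a difference of the glial age effects between regions, endothelial-like nuclei included, 0 passed in edgeR and 0 in DESeq2. In edgeR 2 had an unadjusted p under 0.05 (against 5.27% of tests over all genes), and over all genes 0% passed.

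Glial classes, with endothelial-like nuclei counted among them, were compared between the regions over both ages. Of 41 tests 11 passed, 7 with higher and 4 with lower levels in the caudate putamen, against 11.6% of tests over all genes. Astrocyte-like nuclei of the caudate putamen held less Nrxn2 (log2 fold change -0.55, SE 0.0782, adjusted p = 0.000148), less Nlgn1 (log2 fold change -0.44, SE 0.0692, adjusted p = 0.000365) and less Lrrtm1 (log2 fold change -0.61, SE 0.151, adjusted p = 0.00961). Of all genes 21.4% passed in that class. In these nuclei Nrxn2 stood at 332%, Nlgn1 at 40.8% and Lrrtm1 at 37.7% of the neuron level in the caudate putamen. With doublets kept the Nlgn1 difference turned to 0.06 (adjusted p = 0.626), and the Lrrtm1 difference fell to -0.17 (adjusted p = 0.364). OPC-like nuclei of the caudate putamen held less Lrrtm4 (log2 fold change -0.23, SE 0.0584, adjusted p = 0.0114), a call lost without young caudate putamen replicate 2, old hippocampal replicate 1 or young hippocampal replicate 1 (adjusted p = 0.116, 0.0750 and 0.0644).

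Where glia or endothelial-like nuclei of the caudate putamen held more Nrxn3 or Lrrtm3, the neurons of the same libraries did too. Nrxn3 was higher in caudate putamen astrocyte-like nuclei (log2 fold change 2.12, SE 0.248, adjusted p = 0.00301) and oligodendrocyte-like nuclei (log2 fold change 1.94, SE 0.222, adjusted p = 0.00183), where 14% of genes passed. Summed neuron-like nuclei held 3222 to 4769 CPM of Nrxn3 over hippocampal and 8256 to 9958 CPM over caudate putamen libraries. As a percentage of the neuron level Nrxn3 was 4.29% (hippocampus) and 8.10% (caudate putamen) in astrocyte-like nuclei, and 5.40% and 9.17% in oligodendrocyte-like nuclei, higher in the caudate putamen in both. Lrrtm3 was higher in microglia-like (log2 fold change 2.26, SE 0.31, adjusted p = 0.00167), endothelial-like (log2 fold change 1.76, SE 0.449, adjusted p = 0.0341) and astrocyte-like nuclei (log2 fold change 1.00, SE 0.131, adjusted p = 0.000148), with 189 to 221 CPM and 887 to 1003 CPM in the neurons of the 2 regions. As a percentage of the neuron level Lrrtm3 in microglia-like nuclei was 10.9% and 11.3%, nearly equal. Astrocyte-like nuclei held 30.0 CPM of Lrrtm3 in the hippocampus and 61.6 CPM in the caudate putamen, and endothelial-like nuclei 28.0 and 84.6 CPM. As ratios these levels differed less between regions than those of the neurons. Their percentages of the neuron level were thus lower in the caudate putamen. Lrrtm4, for which hippocampal neurons are the richer (6579 to 7606 CPM against 1969 to 2462 CPM), differed in microglia-like nuclei by -1.38 (adjusted p = 0.396), which did not pass and turned to 1.55 with doublets kept (adjusted p = 1.44e-05). The part of free RNA in these regional differences was not tested. The endothelial-like Lrrtm3 call was lost without old replicate 1, old replicate 2 or young replicate 2 of the caudate putamen or without old or young replicate 1 of the hippocampus (adjusted p from 0.0529 to 0.366), by DESeq2 (0.0688) and at Leiden resolution 0.5 (0.103), and the astrocyte-like Lrrtm3 difference fell to 0.30 in the clustering that allowed the 9 genes as candidates (adjusted p = 0.199), which chose 2 of them in the hippocampus and 0 in the caudate putamen. With doublets kept the log2 differences of Lrrtm3 grew to 5.03 in microglia-like, 4.81 in endothelial-like and 1.82 in astrocyte-like nuclei, and that of Nrxn3 in oligodendrocyte-like nuclei to 2.76. The Nrxn3 difference in astrocyte-like nuclei was 1.54 with the 9 genes as candidates (adjusted p = 0.0081). Oligodendrocyte-like nuclei of the caudate putamen also held more Nlgn1 (0.28, adjusted p = 0.0198) and Lrrtm2 (0.76, adjusted p = 0.00718), and both calls were lost in some alternatives. The Nlgn1 call was lost without old replicate 2, young replicate 1 or young replicate 2 of the caudate putamen or old replicate 1 or 2 of the hippocampus (adjusted p from 0.0517 to 0.0793) and at Leiden resolution 2.0 (0.0630), while with doublets kept the difference was 1.13. The Lrrtm2 call was lost at Leiden resolution 2.0 (0.51, adjusted p = 0.188).

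Nuclei of each library were also split into female and male by Xist and 4 Y-linked genes. Of 93 tests of the 9 genes 0 passed in edgeR and 0 in DESeq2 (in edgeR 5 at an unadjusted p under 0.05, against 3.93% of tests over all genes), against 0.0877% over all genes. Nlgn3, on the X chromosome, differed between female and male nuclei by log2 values from -0.16 to 0.15 over 10 classes. The smallest unadjusted p was that of Nrxn3 in dentate granule-like nuclei (log2 female over male 0.36, SE 0.107, adjusted p = 0.575).

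Lrrtm3 followed its host gene across classes. Over 18 class means Lrrtm3 and Ctnna3, which codes for alpha-T-catenin, had a Pearson correlation of 0.959 on the log2 scale, and the ratio of Lrrtm3 to Ctnna3 ran from 0.211 in hippocampal oligodendrocyte-like nuclei to 1.04 in caudate putamen microglia-like nuclei. The same correlation was 0.851 for Lrrtm1 with Ctnna2 and 0.241 for Lrrtm2 with Ctnna1. These points share libraries and depth, and with strand not stated the counts of a gene and its host on the other strand may share reads.

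**Figure D5:**
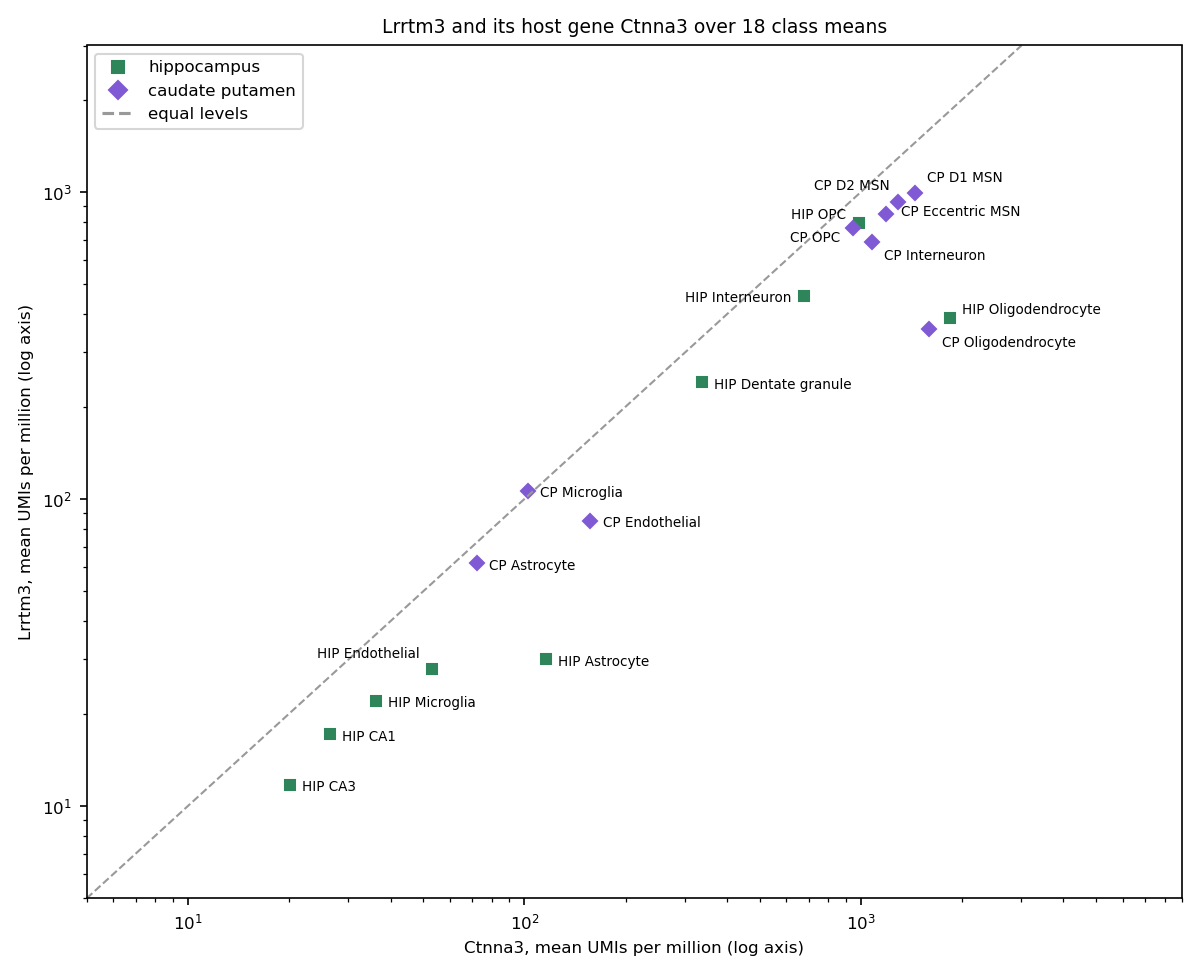
Mean level of Lrrtm3 (vertical) against that of its host gene Ctnna3 (horizontal), in CPM on log axes, for 9 classes of the hippocampus (squares) and 9 of the caudate putamen (diamonds); the dashed line marks equal levels. Both genes are lowest in CA3-like and CA1-like nuclei, Lrrtm3 is highest in D1-like and Ctnna3 in hippocampal oligodendrocyte-like nuclei, and the oligodendrocyte-like points lie farthest below the line.

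Genes with the most similar pattern over the 18 class means, among 14141 genes reaching 10 CPM in a class, were found by Pearson correlation of log2(CPM + 1), a description over points that share libraries. Nrxn3 was most like Rbfox1 (0.985), Ptprn2 (0.978) and Srrm3 (0.974), and Nrxn2 most like 4930592A05Rik (0.957), Gpt2 (0.932) and Scml2 (0.931). The neuroligins were most like Dcc (0.895), Acp1 (0.872) and Cfap47 (0.855) for Nlgn1, Pdzrn4 (0.892), Prkg2 (0.890) and Lhfpl3 (0.881) for Nlgn2, and Mir9-3hg (0.932), Gm29514 (0.920) and Cpxm1 (0.899) for Nlgn3. Lrrtm3 was most like Sytl5 (0.963), Ctnna3 (0.959) and Gm13052 (0.925), Lrrtm4 most like Kcnd3 (0.910), Gm43847 (0.898) and Kif26b (0.896), Lrrtm1 most like Tmem132b (0.930), Ccser1 (0.928) and Map7d2 (0.927), and Lrrtm2 most like Bex1 (0.844), Zcchc12 (0.823) and Rnf227 (0.820). Among the 9 genes themselves the closest pair was Nrxn2 and Nlgn3 (0.794), followed by Nlgn2 and Nlgn3 (0.770), and Nrxn2 and Nrxn3 had a correlation of 0.057.

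Other genes of the pathway were counted from 3 lists. The first held 20 ligands and regulators of neurexins, neuroligins and LRRTM proteins (cerebellins, neurexophilins, MDGA proteins, glypicans and others). Of its age tests 1 of 115 passed in the hippocampus, against 1.17% of tests over all genes there: a lower level of the glypican gene Gpc6 in CA1-like nuclei (-0.72). In the caudate putamen 2 of 109 passed, against 1.28% there: higher levels of Igsf21 in D1-like (0.49) and D2-like nuclei (0.44). Igsf21 codes for a neurexin ligand of inhibitory synapses. At an unadjusted p under 0.05 in edgeR this list had 31 of 115 tests in the hippocampus and 10 of 109 in the caudate putamen. Over all genes 11.9% and 13.8% of tests lay under that p. Among 17 intracellular partners (Cask, Dlg4, Gphn and others) 0 of 151 age tests passed in edgeR in either region, with 21 (hippocampus) and 24 (caudate putamen) at an unadjusted p under 0.05, against 11.9% and 13.8% of tests over all genes at that p. Among 36 other adhesion genes of the synapse 12 of 291 passed in the hippocampus (7 higher and 5 lower) and 8 of 292 in the caudate putamen (5 higher and 3 lower), against the same 1.17% and 1.28% of tests over all genes. In dentate granule-like nuclei these included Il1rapl2 (-1.55), Tenm4 (-1.04), Ntng1 (0.45), Tenm3 (0.39), Lrrc4c (0.31) and Ntng2 (0.30). Ntng2, a netrin-G gene, was also higher in D1-like (1.55) and D2-like nuclei (1.60) of the caudate putamen at 21 months. At an unadjusted p under 0.05 in edgeR the 36 adhesion genes had 68 of 291 tests in the hippocampus and 50 of 292 in the caudate putamen, against the same 11.9% and 13.8%. The changes given for single genes in this paragraph are log2 changes at 21 against 3 months in the edgeR fits.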

How the data were processed

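The deposited files hold raw UMI counts per gene and nucleus, which the authors made with Cell Ranger (version 6.1.2 for 7 libraries and 7.0.0 for young caudate putamen replicate 2, per the file headers; 4.0.0 and mm10 per the submitters' processing notes). Intron counting, strand and annotation are not given in the sources used here. Barcodes with under 500 genes or over 5% mitochondrial counts and doublets (Scrublet as run by scanpy, 0.8% expected per 1000 barcodes) were removed. In young hippocampal replicate 2 the automatic doublet threshold called 71.1% of barcodes, so the score cut at the expected rate (16.2%) was used there. Nuclei of a region were clustered (scanpy 1.11.5, igraph 0.11.9, leidenalg 0.10.2, Python 3.11.15; 3000 variable genes without the 9 genes studied, 40 principal components, 20 neighbours, Leiden resolution 1.0) and clusters named from marker lists, with unclear clusters left unnamed.

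Counts were summed per class and library (at least 20 nuclei in every library) and tested over all genes with edgeR 4.0.16 in R 4.3.3 (quasi-likelihood, TMM scaling, genes with low counts filtered by filterByExpr, Benjamini-Hochberg adjustment, threshold 0.05). In the age and sex fits neuronal classes used the 4 libraries of their region. Glial classes, and endothelial-like nuclei where tested, used all 8 there and in the regional fits. Pairs of classes, glial ones included, were fitted on the 4 libraries of a region with the library as a block. The scripts were tested on simulated data. Alternatives were DESeq2 1.42.0, relative log expression factors, no filter, other clusterings, doublets kept, a replicate block and leaving out each library.

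All 9 genes are named, and for likeness the 3 genes most correlated with each. The members and gene lists were chosen with earlier results of these data known. The tests of differences between neuronal classes and within clusters were added after the data were seen. A library pools 2 animals, and 2 libraries per group limit precision; intervals are not given where replicate spread is. Ages were compared without pairing.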

Additional observations from a re-analysis of the deposited data

Results flagged for a closer look

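The age change of Nrxn3 differed between hippocampal neuron classes. In dentate granule-like nuclei it exceeded that in CA3-like nuclei by 0.96 (adjusted p = 0.0157) and that in interneuron-like nuclei by 1.08 (adjusted p = 0.00317) on the log2 scale, in the edgeR test of the difference itself over the 4 hippocampal libraries. Both were picked out because 2 classes responded differently to the same contrast. Dentate granule-like nuclei were spread differently over the clusters in young and old libraries. The Nrxn3 change was 1.31 and 1.35 within clusters 6 and 7 but 0.44, 0.36 and 0.40 within clusters 8, 9 and 12, against 0.35 in CA1-like nuclei. The part of this uneven spread in the difference between classes was not tested. The classes come from the same libraries, but the fit had no library term and took their sums as independent. The p-values thus do not account for the shared libraries, and the test was added after the data were seen.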

How the results depend on the processing

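Of 77 age tests each, 2 were called in the hippocampus and 2 in the caudate putamen. Without a filter on low counts these became 7 and 4. Leaving out 1 library gave 1 to 7 in the hippocampus (1 without old replicate 1 or 2, and 7 without young replicate 1) and 0 to 3 in the caudate putamen (0 without young replicate 2). In the caudate putamen DESeq2 called 1, clustering with the 9 genes as candidates for variable genes (0 chosen there) 1 and keeping doublets 1. The rise of Nrxn3 in dentate granule-like nuclei was called in all alternatives that kept the whole class, between 1.04 and 1.18. The difference of glial age effects between regions went from 0 to 1 without the filter, and to 0 to 1 when 1 library was left out (1 without young caudate putamen replicate 1). The sex comparison gave 0 to 1 in the same way (1 without young hippocampal replicate 2). The regional comparison of glia went from 11 to 26 with doublets kept, and DESeq2 called 4 instead of 2 differences of age effects between hippocampal neuron classes. The causes were not tested.

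With doublets kept these differences turned sign: Nlgn1 in astrocyte-like nuclei between regions (0.065), Lrrtm4 in microglia-like nuclei between regions (1.55), Nrxn2 in eccentric medium spiny-like against oligodendrocyte-like nuclei (0.030), Nlgn1 in caudate putamen astrocyte-like against oligodendrocyte-like nuclei (-0.0052), Nlgn1 in striatal interneuron-like against endothelial-like nuclei (-0.50) and Nrxn3 in dentate granule-like against OPC-like nuclei (0.026). At Leiden resolution 2.0 Lrrtm3 in dentate granule-like against oligodendrocyte-like nuclei turned to 0.011 and the age change of Nrxn2 in CA3-like nuclei to 0.090. Without the filter Nlgn2 in CA1-like against interneuron-like nuclei turned to 0.0013. Leaving out 1 library, the Nrxn3 age change in hippocampal interneuron-like nuclei ran from -0.081 to 0.18, Nrxn3 in dentate granule-like against OPC-like nuclei from -0.28 to 0.094, Nlgn2 in CA1-like against interneuron-like nuclei from -0.12 to 0.043 and Nlgn2 in D1-like against striatal interneuron-like nuclei from -0.0010 to 0.25. Over 74 class pairs, 780 of the alternatives' values kept direction and call, 97 lost the call and 11 turned. Over 18 age effects these counts were 227, 16 and 3, with 8 that gained a call.

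Replicate numbers were not taken to pair libraries. Same-numbered libraries had correlated deviations of -0.15 to 0.23 in the hippocampus and 0.02 to 0.38 in the caudate putamen. With the replicate block the age counts were 3 and 3, the regional count 9 and the difference of age effects between regions 0. The block added Nrxn3 in CA1-like nuclei (0.35, adjusted p = 6.6e-05) and Nlgn2 in D1-like nuclei (-0.34, adjusted p = 0.0117) to the edgeR age calls, and Nrxn3 (1.81, adjusted p = 4.7e-08) and Nlgn1 (1.51, adjusted p = 1.7e-05) in microglia-like and Lrrtm4 (-1.78, adjusted p = 0.0051) in endothelial-like nuclei to the regional ones. It ended the regional calls of Nlgn1 and Lrrtm2 in oligodendrocyte-like nuclei (adjusted p = 0.355 and 0.0795), Lrrtm4 in OPC-like nuclei (0.178), Lrrtm1 in astrocyte-like nuclei (0.255) and Lrrtm3 in endothelial-like nuclei (0.0560). Crossed numbers in CA3-like nuclei gave 0 calls, as did the fit without a block.

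With 2 libraries per group, and 2 mice pooled in each, small changes of the short genes (Nlgn2, Nlgn3, Lrrtm1 and Lrrtm2) could not be resolved in small classes.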
